A study of Mus musculus with 12 samples.

Results

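The 10 genes described here encode enzymes that cut extracellular matrix and the proteins that inhibit them. They comprise 3 secreted ADAMTS proteases (Adamts5, Adamts1 and Adamts2), 4 matrix metalloproteinases or MMPs (Mmp2, Mmp3, Mmp13 and Mmp14) and 3 tissue inhibitors of metalloproteinases or TIMPs (Timp1, Timp2 and Timp3). They were listed by symbol, all 10 were present among the 10697 genes of the table, and they had been chosen from values of the thymol contrast itself. Their differences between thymol and DMSO are therefore given as a description. Where the threshold of the fit over all genes is mentioned for them, it is not a test of these genes. Tests are given for the order of levels in DMSO, for the covariation within groups and for genes outside the list, although the lists of those genes were also written with earlier results of these data known.

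Transcripts were measured in primary mouse adult fibroblasts (MAFs), cells that grew out of biopsies of wild-type (WT) C57BL6/j mice and were kept in culture. The age of the mice and the number of donors were not given in the sources used here. Cells received 100 µM thymol, a phenolic monoterpene of thyme and oregano, or an equal volume of its solvent DMSO for 24 h, with 6 libraries per group. The assay was QuantSeq 3′ mRNA sequencing, which yields about 1 read per transcript, so that levels can be compared between genes without scaling for length. Levels are log2 CPM, the logarithm of reads scaled to a common library size, and differences are thymol minus DMSO on that scale unless CPM is written.

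The reads recovered from the values ranged from 5435985 to 9049796 per library, with a median of 6593936. All but 1 of the 10 listed fibroblast markers were in the table, among them the defining Col1a1, Col1a2 and Pdgfra, with a summed level of 10800 to 11700 CPM in DMSO and 9650 to 10400 CPM with thymol. All 10 macrophage markers were there too, with Ptprc, Csf1r and Adgre1 at mean levels of 7.29, 9.02 and 7.61 in DMSO, and they summed to 15500 to 17200 CPM in DMSO and 15700 to 18900 CPM with thymol. The cultures labelled fibroblasts thus held macrophage transcripts. Their summed level lay above that of the fibroblast markers, but it rested mostly on Lyz2, at a mean level of 13.61 in DMSO, with C1qa next at 10.48. Not in the table were the defining markers Pecam1 and Kdr of endothelium, Rgs5 of pericytes, Myod1, Pax7 and Myog of skeletal muscle, Krt5, Krt14 and Epcam of epithelium, Cd3e and Cd3d of T cells, Adipoq and Plin1 of adipocytes, Col2a1 and Acan of cartilage, and S100a9 and Mpo of neutrophils. Cdh5, Fabp4, Sox9 and S100a8 were there at mean levels of 1.86, 6.38, 5.55 and 3.53 in DMSO, as was the skeletal muscle actin Acta1, at 7.11. In bulk RNA, fewer cells of a type and less RNA per cell cannot be told apart.

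Matrix is turned over by metalloproteinases that hold a zinc ion in the active site. ADAMTS5 and ADAMTS1 cleave aggrecan and versican, the large proteoglycans that hold water in the matrix, and ADAMTS2 removes the amino-terminal propeptide of fibrillar procollagens. MMP14 sits in the cell membrane, cuts collagen and activates the gelatinase MMP2, a step in which TIMP2 serves as a bridge, while MMP3 (stromelysin-1) and MMP13 (collagenase-3) are secreted enzymes often found at sites of inflammation. TIMPs insert into the active site, and TIMP3, which binds to the matrix, is the member of its family known for inhibiting ADAMTS enzymes.

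The zinc-binding stretch is the feature that all 7 proteases share and to which the TIMPs bind. A search of the coding sequences (GENCODE vM21 transcripts, GRCm38) for codons of histidine, glutamate, histidine and histidine at positions 1, 2, 5 and 11 found 1 such site in each of the 7. Capitals mark these 4 codons, and each sequence is written 5′ to 3′ on the coding strand.
Adamts5 (chr16:85878015-85887826, minus strand, across an intron): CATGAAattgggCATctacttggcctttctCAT
Adamts1 (chr16:85799191-85799545, minus strand, across an intron): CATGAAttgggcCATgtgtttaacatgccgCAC
Adamts2 (chr11:50775403-50776134, plus strand, across an intron): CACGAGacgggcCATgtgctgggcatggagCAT
Mmp2 (chr8:92839279-92839311, plus strand, in 1 exon): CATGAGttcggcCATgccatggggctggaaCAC
Mmp14 (chr14:54437627-54437659, plus strand, in 1 exon): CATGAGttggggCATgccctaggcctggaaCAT
Mmp3 (chr9:7449775-7449807, plus strand, in 1 exon): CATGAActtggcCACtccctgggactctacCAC
Mmp13 (chr9:7276573-7276605, plus strand, in 1 exon): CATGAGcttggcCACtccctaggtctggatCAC
In all 3 ADAMTS genes an intron interrupts the stretch, and in all 4 MMP genes it lies within an exon.

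The promoters of these genes differed in the letters they hold. RefSeq windows of 250 bases before to 50 bases after a start (GRCm38.p6) were given for 8 of the 10 genes, all except Adamts5 and Mmp2. They were searched on both strands for TGAGTCA, the site of the AP-1 factors Fos and Jun, for TATAAA, the TATA box, and for GGGCGG, the GC box. These letters did not overlap each other in the stretches printed here. AP-1 letters were found in 5.2% of all 32851 windows, TATA letters in 13.6% and GC letters in 35.7%. Among the 8 genes, 2 held AP-1 letters, 3 held TATA letters and 6 held GC letters.

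Mmp3 and Mmp13 were the 2 genes with AP-1 letters, each with a TATA box beside them, a pair held by 0.941% of windows. The 75 bases before their starts are printed with those of Adamts1, which holds a TATA box between GC boxes. Mmp10 and Mmp12, of the same gene cluster as Mmp3, are printed because they passed the threshold in a list described further on, so that this pair was chosen after its values were seen. Capitals mark AP-1, TATA and GC letters.
Mmp3 (chr9:7445747-7445821, plus strand): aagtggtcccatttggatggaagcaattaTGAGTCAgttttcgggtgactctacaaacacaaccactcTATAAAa
Mmp13 (chr9:7272439-7272513, plus strand): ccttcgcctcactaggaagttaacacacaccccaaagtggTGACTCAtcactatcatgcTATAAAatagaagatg
Mmp10 (chr9:7502267-7502341, plus strand): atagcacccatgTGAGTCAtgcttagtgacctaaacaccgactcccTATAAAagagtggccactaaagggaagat
Mmp12 (second start, chr9:7347299-7347373, plus strand): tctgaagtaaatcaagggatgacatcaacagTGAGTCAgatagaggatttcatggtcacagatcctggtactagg
Adamts1 (chr16:85803114-85803188, minus strand): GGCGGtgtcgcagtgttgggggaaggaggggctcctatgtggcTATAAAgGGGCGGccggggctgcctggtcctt
Counted from the start, with negative positions before it, the AP-1 letters began at -46 in Mmp3, -35 in Mmp13, -63 in Mmp10 and -44 at the second start of Mmp12. The window at the first start of Mmp12 held none of the 3 motifs. That of Mmp8, also of this cluster and in the table, held TATA letters and neither of the other motifs. The windows of Adamts2, Mmp14, Timp1, Timp2 and Timp3 held GC letters and neither of the other motifs. A match of letters describes the sequence only, and binding was not measured.

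The genes also differed in where they lie (GRCm38, GENCODE vM21). Adamts5 (chr16:85856173-85901828) and Adamts1 (chr16:85793827-85803113) lay on the minus strand with 53059 bases and 1 other annotated gene between them. Mmp13 (chr9:7272514-7283331) and Mmp3 (chr9:7445822-7455975) belonged to a cluster of 9 MMP genes on chromosome 9. Adamts2 (chr11:50602084-50807573), Mmp2 (chr8:92827291-92853420) and Mmp14 (chr14:54431612-54445364) lay apart on the plus strand of their chromosomes. Timp1 (chrX:20870166-20874735) lay inside Syn1 and Timp3 (chr10:86300372-86349506) inside Syn3, both synapsin genes on the opposite strand, while Timp2 (chr11:118301069-118355740) overlapped Cep295nl on its own strand. These overlaps are of whole gene spans, and whether exons overlap was not examined. The strand setting of the counting was not given in the sources used here. Whether strand kept reads of Timp1 and Syn1, or of Timp3 and Syn3, apart is therefore not known. Syn1 was counted at a mean level of 2.96 and Cep295nl at 2.62, and Syn3 was not in the table.

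In DMSO, the inhibitors were far more abundant than the enzymes. The level of Timp2 was 12.11 at the lowest, 12.23 at the median and 12.31 at the highest of the 6 DMSO libraries, above 99.9% of all genes. Timp3 followed at 11.70, 11.81 and 11.85, and Timp1 at 10.53, 10.66 and 10.78. Mmp14 was the most abundant of the listed proteases, with levels of 8.93, 9.10 and 9.29 in DMSO. Then came Adamts5, Adamts1, Mmp2, Adamts2, Mmp3 and Mmp13, the last with levels of 3.49, 4.07 and 4.50.

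Each gene lay above the next in this order in 6 of 6 DMSO libraries, for all 9 neighbouring pairs. The smallest mean gap, between Timp2 and Timp3, was 0.42 ± 0.05 log2 units (SD, n = 6), and the widest, between Timp1 and Mmp14, was 1.56 ± 0.116. Every pair gave p = 0.03125 in an exact two-sided sign-flip permutation test, the smallest that 6 libraries allow, and 0.03125 after adjustment over the 9 pairs. The order was read from the same 6 libraries, so these p-values do not test an order set beforehand. With thymol the order of means was the same except that Mmp3 stood above Adamts2. The plot of levels by library shows this order and the few genes whose groups separate.

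**Figure D1:**
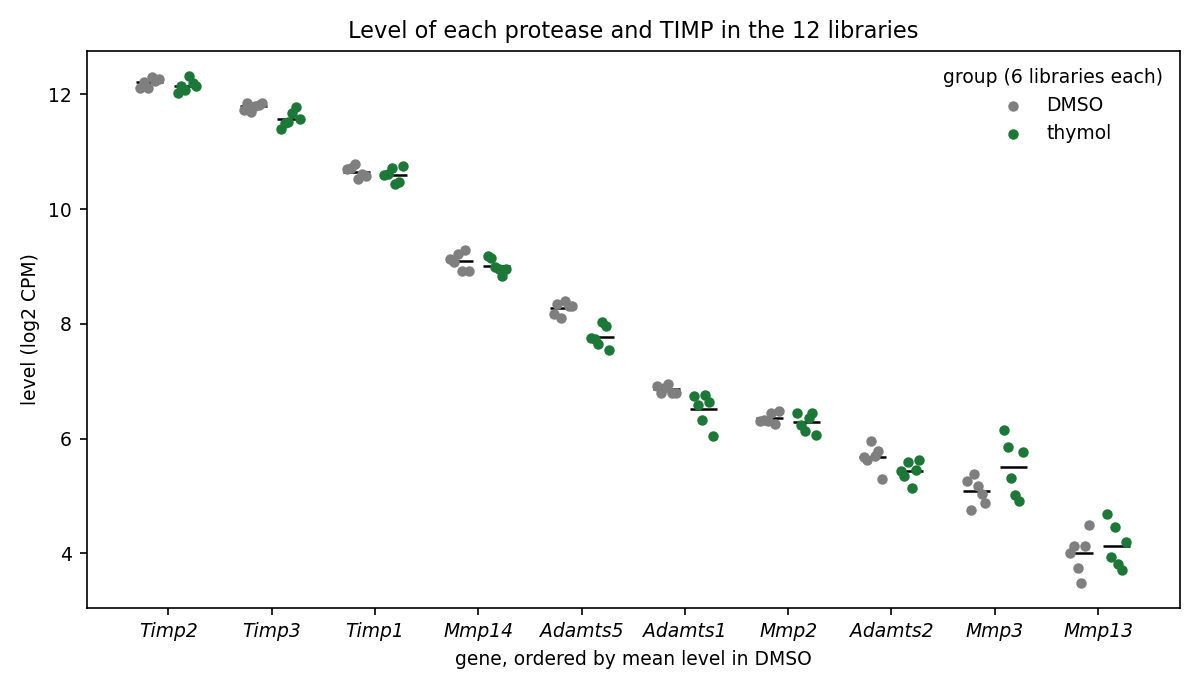
Level of each of the 10 genes (vertical axis, log2 CPM) in 6 DMSO libraries (grey points) and 6 thymol libraries (green points), with genes ordered along the horizontal axis by mean level in DMSO and black bars at group means. Timp2 stands highest with a DMSO median of 12.23, Mmp13 lowest at 4.07, and the thymol points lie below all DMSO points for Adamts5 and Adamts1.

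Across the whole table, 238 of 10697 genes (2.22%) differed between thymol and DMSO at an adjusted p under 0.05 in limma, 168 of them (1.57%) lower with thymol. The groups did not overlap for 180 genes (1.68%). Of the 10 genes described here, 3 passed that threshold, all lower with thymol (Adamts5, Adamts1 and Timp3), and the groups did not overlap for 2 (Adamts5 and Adamts1). Since the genes were chosen from this contrast, nothing is read from these counts. Means were lower with thymol for 8 genes and higher for 2, and the median difference over the 10 genes was -0.077, against 0.0026 over all genes.

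Adamts5 and Adamts1 were lower with thymol in all libraries, and Adamts2 overlapped between groups. Adamts5, the main aggrecan-cleaving enzyme of mouse cartilage, had levels of 8.10 at the lowest, 8.31 at the median and 8.39 at the highest of the DMSO libraries. With thymol its levels were 7.54, 7.75 and 8.03. The highest thymol library lay below the lowest DMSO library, so the groups did not overlap. The mean fell by 0.494 ± 0.066 log2 units (SE; 95% interval -0.63 to -0.36), which is 0.71 times the DMSO level (interval 0.648 to 0.779). In linear units it was 309 ± 23.5 CPM in DMSO and 221 ± 28.7 CPM with thymol (SD, n = 6 each), from a mean of 2178 and 1455 reads. Under the 23 alternative settings the difference lay between -0.58 and -0.40, a range that is likewise a description.

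Adamts1, which lies near Adamts5 on the chromosome and is likewise a cleaver of versican and aggrecan, had levels of 6.79 at the lowest, 6.85 at the median and 6.95 at the highest in DMSO. The thymol libraries stood at 6.04, 6.62 and 6.76, and all 6 lay below all 6 DMSO libraries, the highest of them by a narrow margin. The difference was -0.34 ± 0.087 (SE), or 0.79 times the DMSO level, with means of 116 ± 5.54 CPM in DMSO and 92.7 ± 16.8 CPM with thymol (SD, n = 6 each). Thymol replicates 3 and 6 were the lowest, at 6.32 and 6.04. Without thymol replicate 6 the difference was -0.25, without thymol replicate 3 it was -0.30, and in neither case did it pass the threshold.

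Adamts2 encodes the procollagen N-proteinase. Its levels were 5.30, 5.69 and 5.95 in DMSO (lowest, median and highest) and 5.14, 5.45 and 5.63 with thymol, and only 1 thymol library lay below all DMSO libraries. The difference was -0.239 ± 0.106 (SE; 95% interval -0.45 to -0.03) and did not pass the threshold over all genes.

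Summed over the 3 ADAMTS genes, the level was 476 ± 20.6 CPM in DMSO (454 to 510) and 357 ± 39.1 CPM with thymol (300 to 404; SD, n = 6 each). The lowest DMSO library thus lay above the highest thymol library. Adamts5 was the largest part of that sum, at 309 CPM in DMSO and 221 CPM with thymol, and Adamts2 by itself overlapped between groups. The ratio of Adamts5 to Adamts1 was 2.68 ± 0.262 in DMSO and 2.41 ± 0.275 with thymol, and the ranges of that ratio overlapped. ADAMTS transcripts made up 41.2% ± 2.56 of the 7 proteases in DMSO and 35.1% ± 3.61 with thymol.

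The MMPs went in no common direction. Mmp14, the membrane-bound activator, had levels of 8.93, 9.10 and 9.29 in DMSO and 8.84, 8.97 and 9.18 with thymol (lowest, median and highest). Its difference was -0.084 ± 0.059 (SE), which is small beside the range of either group. Mmp2, the gelatinase it activates, ranged from 6.26 to 6.48 in DMSO and from 6.07 to 6.45 with thymol, with a difference of -0.069 ± 0.082. Both intervals included 0, at -0.20 to 0.03 for Mmp14 and -0.23 to 0.10 for Mmp2.

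Mmp3, stromelysin-1, varied most among the thymol libraries, with an SD of 0.497 log2 units. Its levels were 4.76, 5.10 and 5.39 in DMSO (lowest, median and highest) and 4.91, 5.54 and 6.15 with thymol. Thymol replicates 1, 2 and 6, at 6.15, 5.86 and 5.76, lay above every DMSO library, and replicates 3, 4 and 5 lay within the DMSO range. The difference was 0.425 ± 0.142 (SE; 95% interval 0.14 to 0.71), or 33.9 ± 5.58 CPM in DMSO against 47.3 ± 16.1 CPM with thymol (SD, n = 6 each), and it did not pass the threshold over all genes. It did pass without thymol replicate 4, at 0.52, and without thymol replicate 5, at 0.54.

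The SD of Mmp3 within groups was 0.389 log2 units, the widest of the 10 genes, against a median of 0.21 over all genes. Mmp13, collagenase-3, was the least abundant, with 73 to 164 reads per library, levels of 3.49, 4.07 and 4.50 in DMSO and 3.70, 4.07 and 4.68 with thymol. The groups overlapped almost entirely, and the difference of 0.13 ± 0.178 (SE) had a 95% interval of -0.23 to 0.49.

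Among the inhibitors, Timp3 was lower with thymol. Its levels were 11.70, 11.81 and 11.85 in DMSO (lowest, median and highest) and 11.40, 11.54 and 11.78 with thymol. Thymol replicate 5 lay within the DMSO range, and the other 5 lay below it. The difference was -0.219 ± 0.049 (SE; 95% interval -0.32 to -0.12), or 3550 ± 152 CPM in DMSO and 3060 ± 289 CPM with thymol (SD, n = 6 each).

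Timp1, a soluble inhibitor that acts weakly on MMP14, and Timp2, the bridge between MMP14 and MMP2, overlapped between groups. Timp1 levels were 10.53, 10.66 and 10.78 in DMSO and 10.44, 10.60 and 10.75 with thymol (lowest, median and highest), a difference of -0.057 ± 0.051 (SE). Timp2 levels were 12.11, 12.23 and 12.31 in DMSO and 12.02, 12.14 and 12.32 with thymol, a difference of -0.063 ± 0.047. The ratio of Timp3 to Timp2 within a library was 0.748 ± 0.0255 in DMSO and 0.672 ± 0.0402 with thymol (SD, n = 6 each).

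**Figure D2:**
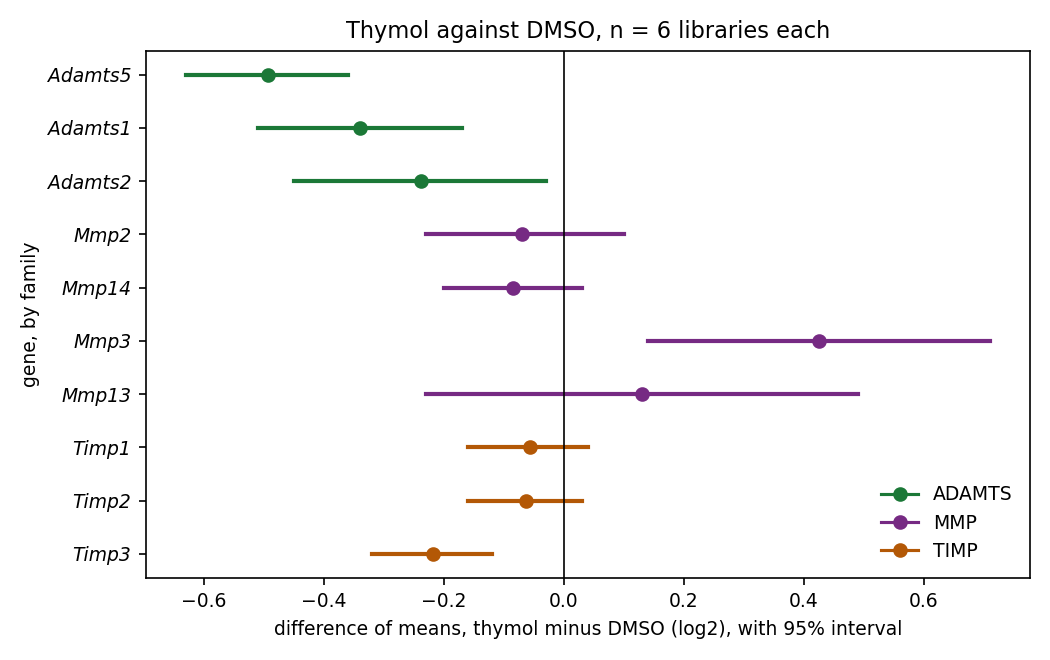
Difference of mean level, thymol minus DMSO (horizontal axis, log2 units), for each of the 10 genes (vertical axis, by family), with points at the difference and bars for its 95% interval from the fit over 6 libraries per group. Adamts5 lies furthest below 0 at -0.494, Mmp3 furthest above at 0.425, and the intervals of Mmp2, Mmp14, Mmp13, Timp1 and Timp2 include 0.

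Inhibitor transcripts outnumbered protease transcripts in every library. The 3 TIMPs summed to 9910 ± 303 CPM in DMSO and 9160 ± 502 CPM with thymol, and the 7 proteases to 1160 ± 46.8 and 1020 ± 71.7 CPM (SD, n = 6 each). TIMPs made up 89.5% ± 0.546 of the transcripts of the 10 genes in DMSO and 90.0% ± 1.04 with thymol. The ratio of TIMP to protease transcripts was 8.58 ± 0.504 in DMSO (8.05 to 9.27) and 9.06 ± 0.958 with thymol (7.42 to 9.90), so the ranges overlapped. These sums and ratios hold for the listed genes only. Mmp12, a protease outside the list, had a mean level of 8.65 log2 CPM in DMSO and 9.09 with thymol. A sum that includes it was not made. Adamts5 stood at 8.71% ± 0.395 of the level of its inhibitor Timp3 in DMSO and at 7.22% ± 0.731 with thymol, and the highest thymol library, at 8.04%, lay below the lowest DMSO library, at 8.25%.

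**Figure D3:**
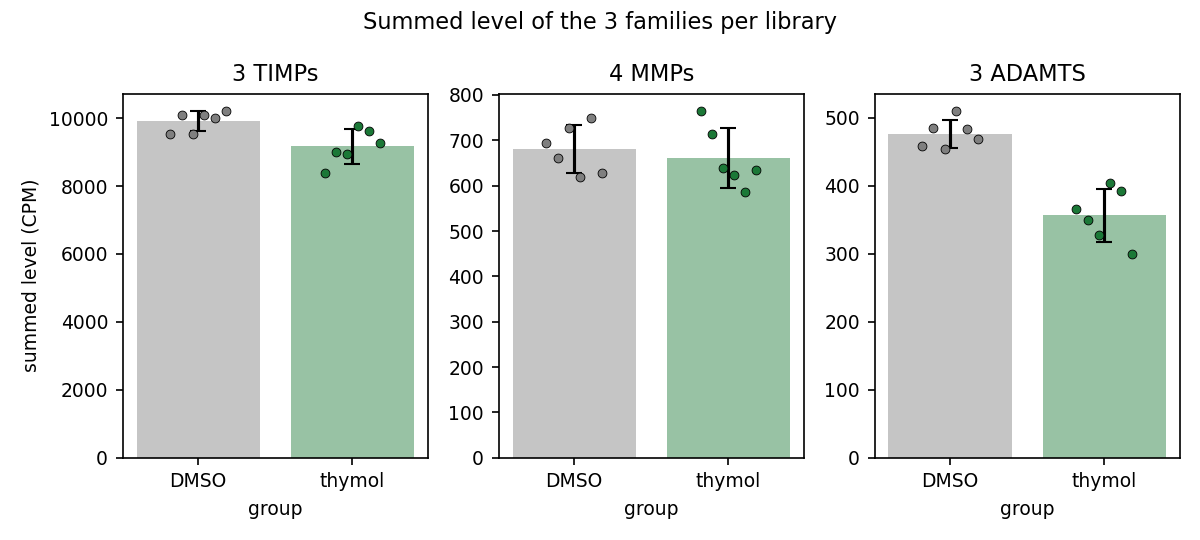
Summed level (vertical axis, CPM) of the 3 TIMPs, 4 MMPs and 3 ADAMTS genes in DMSO and thymol (horizontal axis), with points for the 6 libraries of a group, bars for the mean and whiskers for the SD. The ADAMTS sums, of which Adamts5 is the largest part, separate, with DMSO libraries from 454 to 510 and thymol libraries from 300 to 404, while those of the MMPs and TIMPs overlap.

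The covariation of the genes within groups did not use the contrast, since each group's mean was removed first. Over the 12 libraries, 45 pairs were compared, and 2 passed an adjusted p of 0.05 with Pearson's r (permutation of libraries within groups, two-sided). The permutation tests a pair against no covariation at all, whereas many genes here varied along a shared axis, described further on. How often pairs of other genes would pass was not tested, so the p-values of the pairs do not set them apart from other gene pairs. Adamts5 and Timp1 varied in opposite directions (r = -0.93, permutation p = 0.00021, adjusted 0.0094; Spearman's rho = -0.90, permutation p = 0.0011, adjusted 0.024). Without the 2 libraries farthest from the median of Adamts5, r was -0.88, and it was -0.80 within DMSO and -0.99 within thymol. So libraries with more Adamts5 held less Timp1 in both groups.

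Mmp3 and Timp3 also varied in opposite directions (r = -0.90, permutation p = 0.00049, adjusted 0.011; rho = -0.94, permutation p = 8e-05, adjusted 0.0036). Without the 2 libraries farthest from the median of Mmp3, r was -0.81, and it was -0.95 within DMSO and -0.89 within thymol. The pairs Adamts5 and Timp2 (rho = 0.80, adjusted permutation p = 0.049) and Timp2 and Timp3 (rho = 0.83, adjusted permutation p = 0.037) passed with Spearman's rho but not with Pearson's r, which was 0.76 for both with an adjusted p of 0.061. The other 41 pairs passed with neither.

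**Figure D4:**
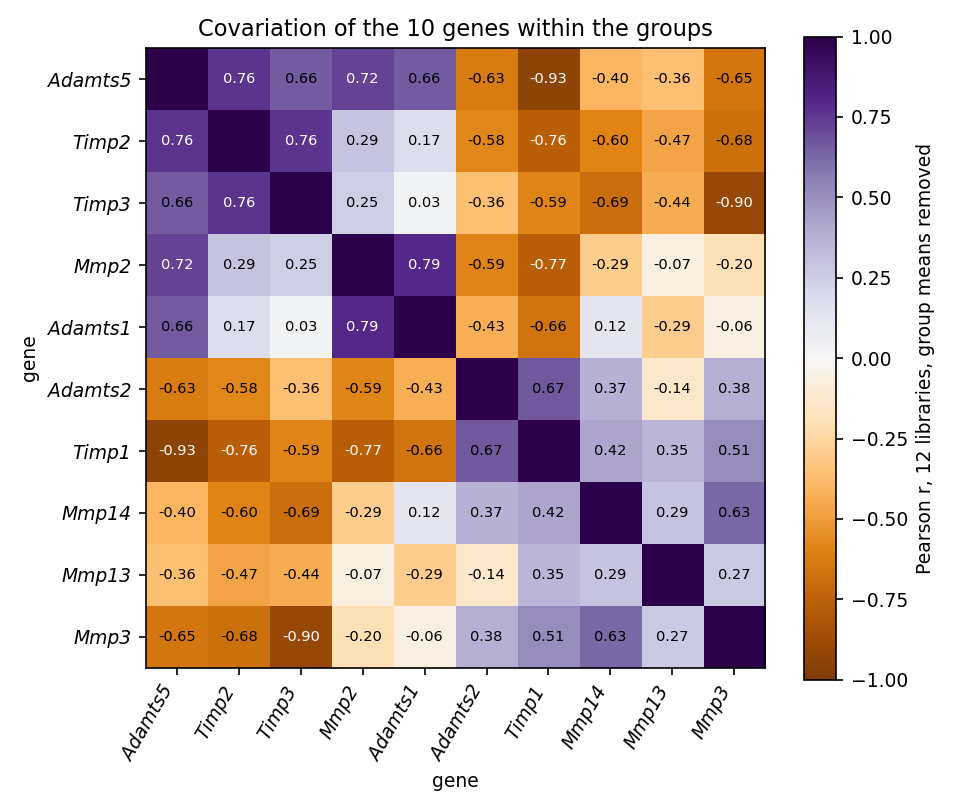
Pearson correlation of each pair of the 10 genes over 12 libraries after the mean of each group was removed (colour scale and printed values, from -1 in orange to 1 in purple; both axes list the genes). Adamts5, Timp2 and Timp3 correlate positively with each other (0.66 to 0.76), and the lowest values are -0.93 for Adamts5 with Timp1 and -0.90 for Mmp3 with Timp3.

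Several of the 10 genes followed an axis that many genes shared. The first principal component within groups, computed over 5394 genes above a mean level of 5, took up 20.6% of it. Its correlation over the 12 libraries was 0.86 with Timp2, 0.82 with Timp3 and 0.63 with Adamts5, and -0.86 with Mmp14, -0.72 with Mmp3 and -0.63 with Timp1. It was 0.01 with Adamts1, 0.28 with Mmp2, -0.45 with Adamts2 and -0.49 with Mmp13. The same component correlated at -0.80 with the summed macrophage markers, -0.45 with the summed fibroblast markers and 0.02 with depth. These correlations are given as a description, and the part of the macrophage markers in the covariation was not tested.

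The gene that varied most like each protease or TIMP was sought among the other genes above a mean level of 5, by Pearson's r over the 12 libraries with group means removed. It was Sqle for Adamts5 (0.92), Ppp2r1a for Adamts1 (0.90), Ebna1bp2 for Adamts2 (0.85), Tmem167b for Mmp2 (0.90) and Spg21 for Mmp3 (0.95). It was Imp4 for Mmp13 (0.93), Lrpprc for Mmp14 (0.97), Vim for Timp1 (0.92), Plod2 for Timp2 (0.96) and Ncstn for Timp3 (0.96). Each is the highest of at least 5393 values over libraries that share the axis just described, so they carry no test.

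Other genes of matrix turnover were examined in 8 lists of 104 genes, of which 61 were in the table. In the fit over all genes, 3 of the 61 were higher with thymol and 5 were lower, beside 2.22% of all genes in either direction. The median difference over the 61 was -0.044. In the same fit, 19 of the 61 had an unadjusted p under 0.05, beside 1261 of all 10697 genes. Among the 19 were 8 of the 14 substrates, 4 of the 7 AP-1 subunits and 3 of the 9 other MMPs in the table. Every adjusted p in the account of these lists is from limma with Benjamini-Hochberg adjustment over all genes.

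Of the 19 other MMPs, 9 were in the table, and 2 rose. Mmp10, stromelysin-2, stood at 2.50, 3.01 and 3.48 in DMSO (lowest, median and highest) and at 3.14, 4.18 and 4.62 with thymol, and 5 of the 6 thymol libraries lay above every DMSO library. The mean rose by 0.98 ± 0.214 log2 units (SE, adjusted p = 0.0036), at a mean of 81.8 reads per library. Mmp12, the elastase of macrophages, stood at 8.49, 8.63 and 8.85 in DMSO and at 8.77, 9.14 and 9.34 with thymol, again with 5 of 6 thymol libraries above the DMSO range. It rose by 0.45 ± 0.065 (SE, adjusted p = 5.3e-06). The summed macrophage markers, 16000 ± 616 CPM in DMSO and 16700 ± 1160 CPM with thymol (SD, n = 6 each), differed by less than the spread (exact two-sided permutation test, p = 0.297, also 0.297 after adjustment over 3 lists). Lyz2, at 13.61 in DMSO, was the most abundant of them, so that the sum says little of the others. The single markers went both ways, with Itgam called lower at -0.31 (limma, adjusted p = 0.00071) and Mrc1 at -0.20 and Cd68 at 0.18 not past the threshold. The defining Ptprc, Csf1r and Adgre1 differed by -0.07, -0.15 and -0.14 and did not pass either. The part of these markers in the rise of Mmp12 was not tested.

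The cluster of 9 MMP genes on chromosome 9 (chr9:7272514-7699585) had 5 genes in the table. In the order of the chromosome their differences were 0.13 for Mmp13, 0.45 for Mmp12, 0.42 for Mmp3, 0.98 for Mmp10 and -0.22 for Mmp8, the collagenase of neutrophils. Of these, Mmp12 and Mmp10 passed the threshold, and Mmp13, Mmp3 and Mmp8 did not. Mmp19, with a mean level of 5.31 in both groups, was after Mmp12 the most abundant of the other MMPs, and its difference was 0.00 ± 0.116 (SE).

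None of the 9 other ADAMTS and ADAMTS-like genes in the table passed in limma. An unadjusted p under 0.05 was found for 2 of them, beside 1261 of all 10697 genes. Means were lower with thymol for 8 of the 9, with a median difference of -0.142. Adamts10, a protease associated with fibrillin microfibrils, was the most abundant by the mean over all libraries, at 5.67 ± 0.171 in DMSO and 5.53 ± 0.154 with thymol (SD, n = 6 each), followed by Adamtsl5 at 4.91 ± 0.207 and 4.87 ± 0.131. Adamts12, named after its values were seen, was at 4.94 ± 0.098 and 4.64 ± 0.252, with 4 of 6 thymol libraries below every DMSO library.

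None of the 8 ADAMs in the table, membrane-bound relatives that shed cell surface proteins, passed in limma. An unadjusted p under 0.05 was found for 2 of them, beside 1261 of all 10697 genes. The most abundant were Adam15, at 8.52 ± 0.137 in DMSO and 8.35 ± 0.159 with thymol, and Adam8, at 8.43 ± 0.098 and 8.25 ± 0.124 (SD, n = 6 each). Among the 4 astacin-type genes, which include the procollagen C-proteinase Bmp1 and its enhancer Pcolce, none passed, and none had an unadjusted p under 0.05. Bmp1 differed by 0.08 ± 0.074 and Pcolce by -0.05 ± 0.056 (SE).

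Inhibitors and activators outside the TIMPs gave no calls either, in limma and at an unadjusted p under 0.05. Lrp1, the receptor that takes up metalloproteinases from the medium, was at 9.40 ± 0.057 in DMSO and 9.42 ± 0.073 with thymol, and Reck, a membrane-anchored MMP inhibitor, at 2.01 ± 0.728 and 2.18 ± 0.403 (SD, n = 6 each). Of the 8 activators in the table, the most abundant were Cd44, a docking protein for MMPs, with a difference of -0.03 ± 0.048, and Bsg, an inducer of MMPs, with 0.06 ± 0.059 (SE).

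The substrates gave 3 calls among 14 genes in the table, beside 2.22% of all genes in either direction. Means were lower with thymol for 10 of the 14, with a median difference of -0.114. Col3a1, the chain of type III collagen, fell by 0.54 ± 0.055 log2 units (SE, adjusted p = 4.4e-10), and Col1a1, a chain of type I collagen, fell by 0.28 ± 0.044 (adjusted p = 2.9e-05), both with all 6 thymol libraries below every DMSO library. Spp1, osteopontin, rose by 0.22 ± 0.056 (adjusted p = 0.018), with 3 of 6 thymol libraries above the DMSO range. Col1a2, the partner chain of Col1a1 and among the 2 most abundant substrates, was at 11.71 ± 0.058 in DMSO and 11.64 ± 0.085 with thymol (SD, n = 6 each) and did not pass. Neither did the collagen genes Col4a1, Col4a2, Col5a1 and Col5a2, at -0.11, -0.18, -0.16 and -0.17. Of their 6 thymol libraries, 5 lay below every DMSO library for Col4a1 and Col5a1, and 4 for Col4a2 and Col5a2. Spp1 lost its call in 7 of 23 alternatives, among them without DMSO replicate 2 (0.20), DMSO replicate 3 (0.18), DMSO replicate 5 (0.17) and thymol replicate 6 (0.20).

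Beside the collagens, the summed fibroblast markers, which include Col1a1 and Col3a1, were 11200 ± 307 CPM in DMSO and 10100 ± 271 CPM with thymol (SD, n = 6 each; exact two-sided permutation test, p = 0.00216, the smallest that 924 relabellings allow, 0.00649 after adjustment over 3 lists). On the mean of log2 values over the markers, 0 of the 3 lists passed. Thy1, Pdgfra and Pdgfrb, fibroblast surface markers that are not collagens, differed by -0.13, 0.33 and 0.00 and did not pass. The smooth muscle markers summed to 10300 to 11700 CPM in DMSO and 8120 to 11700 CPM with thymol (p = 0.0823 in the exact permutation test, 0.123 adjusted), with 5 of 6 listed markers in the table, Rgs5 not among them, Cnn1 at -0.20 and not past the threshold, and Myh11 called lower at -0.37. Acta1, the 1 skeletal muscle marker of 6 in the table, was also called lower, at -0.45 (limma, adjusted p = 5e-05), with sums of 125 to 149 CPM in DMSO and 87.0 to 113 CPM with thymol. Whether these shifts bear on the lower levels of Adamts5, Adamts1 and Timp3 was not tested.

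Of the 9 AP-1 subunits, 7 were in the table and 3 were called lower, beside 1.57% of all genes. Fosl1 at 0.29, Atf2 at 0.11, Jun at 0.04 and Jund at -0.04 did not pass, so the subunits did not move as 1 group. Fos fell by 0.77 ± 0.139 log2 units (SE, adjusted p = 2.6e-04), Fosl2 by 0.26 ± 0.056 (adjusted p = 0.0023) and Junb by 0.23 ± 0.065 (adjusted p = 0.041). For each of the 3, all 6 thymol libraries lay below every DMSO library, where 1.68% of all genes had groups that did not overlap in either direction. Fosl2 was the most abundant subunit, at 8.13 ± 0.07 in DMSO and 7.86 ± 0.055 with thymol, followed by Junb at 7.48 ± 0.061 and 7.25 ± 0.134 (SD, n = 6 each). Junb passed in only 12 of 23 alternatives, and lost its call without any 1 of DMSO replicates 1, 2, 3, 4 and 6 (-0.24 to -0.21) or of thymol replicates 1, 2 and 3 (-0.23 to -0.18).

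**Figure D5:**
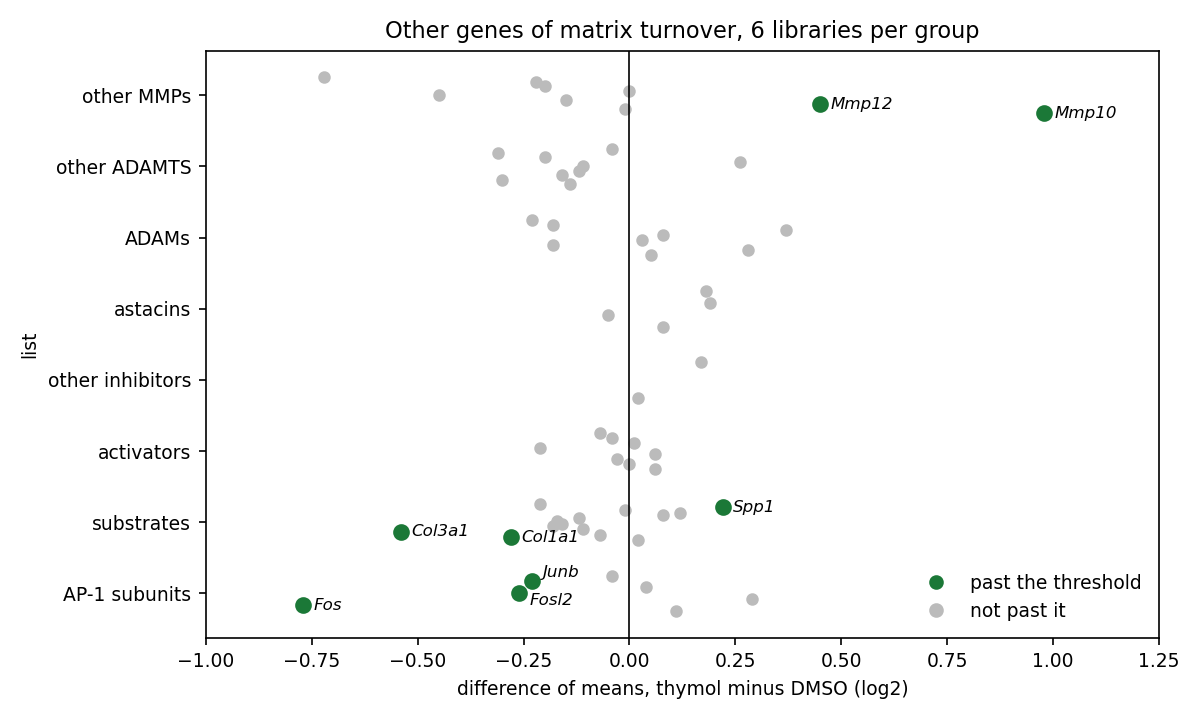
Difference of mean level, thymol minus DMSO (horizontal axis, log2 units), for the 61 other matrix turnover genes in the table, 1 point per gene, grouped by list on the vertical axis, with the 8 genes past the threshold in green and named. Mmp10 at 0.98, Mmp12 at 0.45 and Spp1 at 0.22 lie to the right of 0, and Fos at -0.77, Col3a1 at -0.54, Col1a1 at -0.28, Fosl2 at -0.26 and Junb at -0.23 to the left.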

How the data were processed

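QuantSeq 3′ libraries were made from total RNA in 12 libraries. The authors aligned reads with STAR 2.5.3 to GRCm38, counted them per gene with HTSeq 0.6.1, kept genes with 30 reads or more in at least 6 libraries, removed genes without annotation, scaled by TMM and tested the counts with edgeR. The deposited values are log2 CPM with a prior count, and all 10697 symbols were used. Undoing the logarithm gave values within 0.02 of whole reads for 100% of entries under 200 reads, with a prior of 1.93 reads in an average library. A prior pulls differences of low genes toward 0. Reads are PCR products with no molecular identifiers described. Counting error therefore cannot be taken from read numbers alone.

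The deposited unit is log2, so limma 3.58.1 (R 4.3.3; lmFit, eBayes with a trend, 2 groups, Benjamini-Hochberg over all genes, threshold 0.05) was the test. It was also run on simulated counts in which genes varied independently, without the axis that many genes shared here, so no result rests on that run. No source says whether libraries of a group came from separate mice, so p-values measure the spread between these libraries, which may be technical. The 10 genes, the 8 lists and the cell type markers were chosen with earlier results of these data known. Named are the 10 genes, every list gene past the threshold and the 2 most abundant of each list, the gene most correlated with each of the 10, and the first 3 markers of each cell type, of which 1 is not reported here. Mmp8, Mmp9, Adamts12, Col4a1, Col4a2, Col5a1, Col5a2 and some further genes and markers were named after their values were seen. Permutations of correlations numbered 100000. Alternatives changed the variance model, prior, filter, scaling and libraries.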

Additional observations from a re-analysis of the deposited data

Results flagged for a closer look

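Groups of 6 libraries were examined for a sample far from the others, in 32 groups of values, and 3 had one, where chance alone gives about 1 in 20. The recovered reads of thymol replicate 5 were 9049796, and the gap to the next library was 0.682 of the range of its group. The summed macrophage markers were 17220 CPM in DMSO replicate 1 (0.685 of the range) and 18920 CPM in thymol replicate 1 (0.667 of the range). Thymol replicate 1 was also the library with the highest Mmp3 level, 6.15, and the lowest Timp3 level, 11.40. No level of the 10 genes stood apart by this measure.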

How the results depend on the processing

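Without the mean-variance trend of limma, 57 genes passed in place of 238, and 2 genes of the matrix turnover lists in place of 8. The odd-numbered libraries alone gave 70 genes and 5 list genes, and the even-numbered libraries alone gave 167 genes and 5 list genes, with fewer libraries in each. Mmp2 changed sign to 0.05 in the odd-numbered libraries, and Mmp13 to -0.06 and Mmp14 to 0.04 in the even-numbered ones. A limma term for an effect of thymol that differs between odd and even numbers gave adjusted p of 0.992 to 0.997 for the 10 genes. The cause of the sign changes was not tested. Of the differences of the 10 genes, 216 values kept direction and side of the threshold, 7 lost a call (Adamts1 in 5, Timp3 in 2, without the trend and in the odd-numbered libraries), 3 gained one (all Mmp3, at 0.52, 0.54 and 0.61) and 3 changed sign. Since the genes were chosen from this contrast, these counts are not read as support.

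Leaving out 1 library at a time gave 172 to 270 genes and 6 to 11 list genes. Col3a1 passed in 23 of 23 alternatives, Mmp12 in 22, Col1a1 and Fosl2 in 21 each, Fos in 21 of 22 and Mmp10 in 19 of 22. Genes with a mean under 5 log2 CPM have no value under the filter above 5. Of the summed marker lists, 1 passed (fibroblast), also without each library, and 0 passed on mean log2 values. A pseudocount of 10 CPM left 9 of 9 pairs of the order in DMSO past the threshold. An added constant cannot change which gene is higher in a library, so that outcome was fixed in advance and shows nothing further. With 3 odd-numbered or 3 even-numbered libraries the test of the order cannot reach the threshold.

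With a replicate block, 332 genes and 12 list genes passed, and the same 3 of the 10 genes did, which is likewise a description. The deviations of libraries with the same number correlated at -0.051 to 0.27 and 1 of 6 numbers matched best with itself, so the numbers were not taken to pair libraries.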
